A study of Mus musculus with 26 samples.

Results

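Gelsolin (Gsn) and 7 further genes grouped with it as genes of resting heart fibroblasts, Abca8a, Dpep1, Smoc2, Hsd11b1, Mgp, Nmb and Rgcc, were followed through myocardial infarction. They were picked by symbol, as 8 of the 24421 genes in the deposited count tables, and each of the 8 was present in all 26 libraries and passed the filter on low counts. The libraries are bulk RNA sequencing of stromal cells from hearts of C57BL/6 mice (B6.129S4-Pdgfratm11(EGFP)Sor/J) that carry the PDGFRa H2BEGFP allele, a nuclear green fluorescent protein driven from the Pdgfra locus. Cells were sorted as negative for CD45 and CD31, which removes leukocytes and endothelium, and positive for the reporter. They were then split into Sca-1 positive and Sca-1 negative cells. Every group carries the reporter, and the sort keeps only cells that express it. The labels give neither age nor sex and do not tie libraries to single animals.

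The groups, in time order, were undamaged hearts (5 Sca-1 positive and 4 Sca-1 negative libraries) and hearts taken 7 days (3 and 3), 14 days (2 and 2) and 28 days (4 and 3) after the left anterior descending coronary artery was tied off. For 4 of the 6 day 7 libraries the gate stands only in the deposited file name, not in the title. Ly6a, the gene of Sca-1, had 296 and 334 CPM (counts in genes scaled to a common library size, with TMM factors) in the 2 of these filed as positive, against 35.9 and 31.7 CPM in the 2 filed as negative. Pdgfra was at 344, 499.6, 509, 342, 533 and 367 CPM in the 6 day 7 libraries and at lowest 434, median 591 and highest 699 CPM in the 9 undamaged ones. A library held 6792786 to 48836726 counts in genes, so that 3 counts correspond to 0.0614 to 0.442 CPM. Reads outside genes were 5.53% to 18.7% of a library; the one exception was Sca-1 positive day 28 library E2, at 55.8%. Titles carry replicate codes of 2 styles: a letter with a digit (letter-coded; 5 undamaged and 3 day 28 libraries) or a code behind leading characters that hold a number (prefixed; 4 libraries at each time), and 2 day 7 libraries carry none. The prefix is not of one form: undamaged and day 28 titles differ in it, and at day 7 the code itself is a digit with a letter, so that prefixed libraries share no more than having a prefix.

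A resting cardiac fibroblast maintains the matrix of the heart wall, and after infarction fibroblasts divide, make scar collagen and later settle in the scar. The 8 genes cover separate roles. Gelsolin severs and caps actin filaments under the control of calcium, and a secreted form clears actin from plasma. Abca8a is a membrane transporter of the ABCA subclass. Dpep1 is a membrane-anchored dipeptidase that cleaves products of glutathione and leukotriene metabolism. Smoc2 is a secreted calcium-binding matrix protein of the SPARC family. Hsd11b1 is the enzyme that regenerates active glucocorticoid inside cells. Mgp, matrix Gla protein, is a vitamin K dependent inhibitor of calcification. Nmb encodes neuromedin B, a bombesin-like peptide, and Rgcc a regulator of the cell cycle first described as a complement response gene.

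Gelsolin was the most abundant transcript per kilobase of exon among the 12926 genes ranked, and it held rank 1 at each of the 4 times. It took 4.61% ± 0.518 of all gene counts in undamaged hearts (SD, n = 9), 1.54% ± 0.503 at day 7 (n = 6), 2.39% ± 0.564 at day 14 (n = 4) and 3.98% ± 0.682 at day 28 (n = 7). On the same per-kilobase scale Mgp ranked 4 in undamaged hearts, 10 at day 7, 5 at day 14 and 3 at day 28. Dpep1 ranked 44 in undamaged hearts and 154 at day 7, Smoc2 125 and 190, and Abca8a 133 and 259. The lower ones were Hsd11b1 with ranks 285 and 1133, Nmb with 732 and 2360, and Rgcc with 2444 and 4465 at these 2 times. The 8 genes thus cover a wide range of levels, and Rgcc stood on as few as 36 counts in a library.

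**Figure D1:**
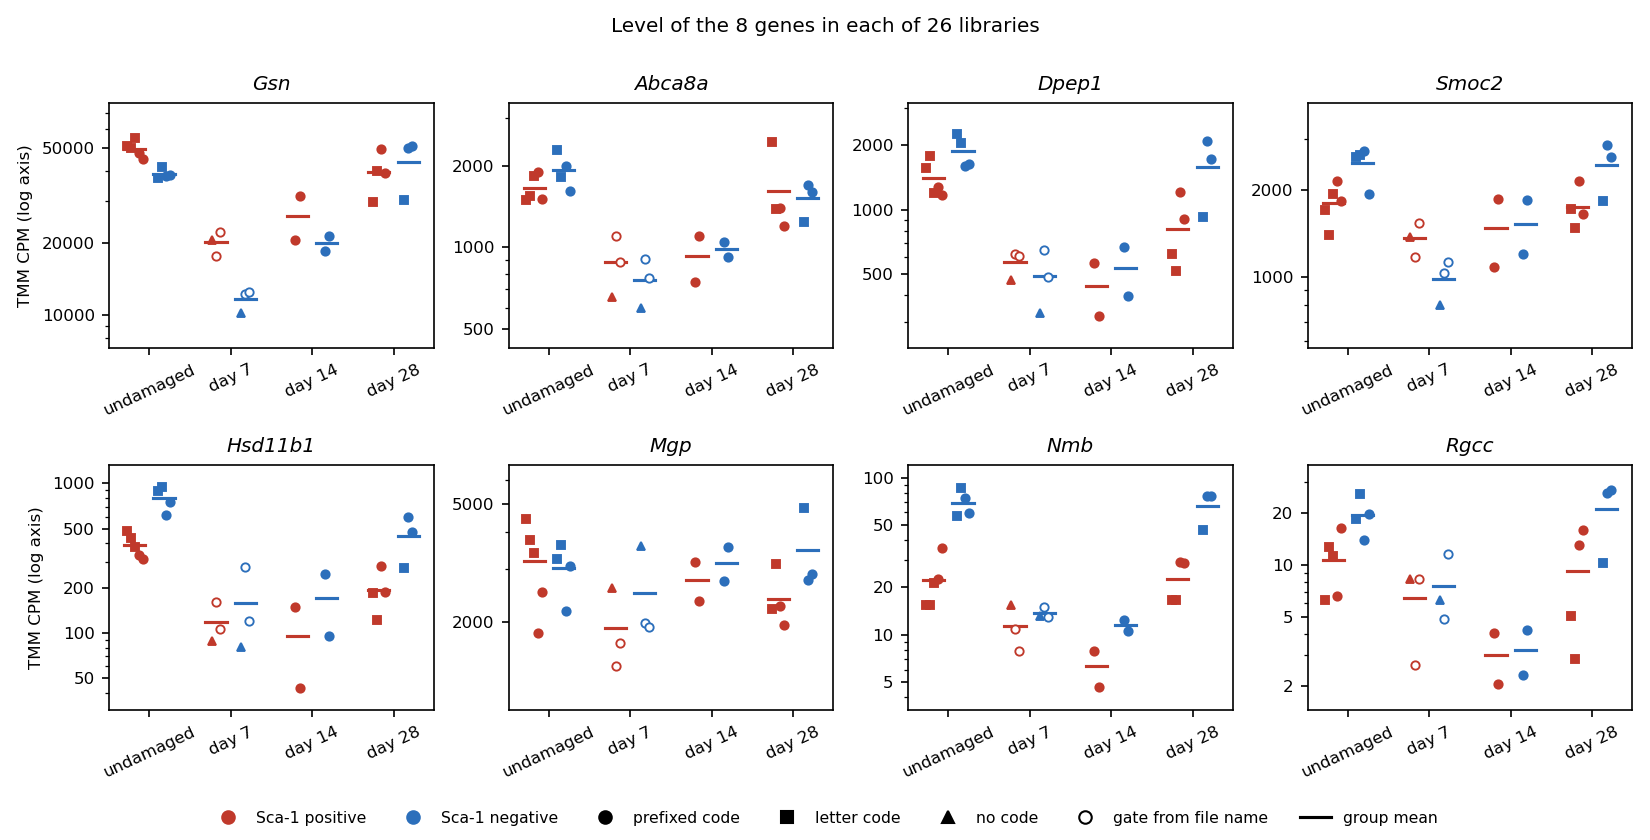
TMM-scaled CPM (log axis) of each of the 8 genes in every library, by time, with Sca-1 positive libraries (red) left of negative ones (blue); bars are group means, symbols show the style of the title code and open symbols the 4 day 7 libraries whose gate comes from the file name. Gsn, Abca8a, Dpep1 and Hsd11b1 at day 7 lie below every undamaged library, and Nmb is split by gate in undamaged and day 28 hearts.

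At day 7 after ligation 6 of the 8 genes had fallen: Gsn, Abca8a, Dpep1, Smoc2, Hsd11b1 and Nmb (edgeR quasi-likelihood test of 26 libraries by time, Benjamini-Hochberg adjusted p under 0.05 over 13392 genes). Of all genes tested, 11.2% were called lower and 11.5% higher. The 8 genes had a median log2 difference of -1.31, beside -0.04 over all genes. They were chosen with earlier results of these data known, so this count describes them and is no test of the choice. In bulk libraries fewer cells of a type and less RNA per cell cannot be told apart. In 4 of the 8, Gsn, Abca8a, Dpep1 and Hsd11b1, no day 7 library reached the lowest undamaged one, which held for 2.15% of all genes.

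Gelsolin, the actin-severing protein, had 20672, 17566 and 22298 CPM in the Sca-1 positive day 7 libraries, against 50994, 50118, 55169.6, 47414 and 44791 CPM in the undamaged ones of that gate. In the Sca-1 negative gate it had 10206, 12249 and 12488 CPM at day 7, against 37415, 41759, 37959.6 and 38523 CPM in undamaged hearts. Groups did not overlap in either gate, and the 3 negative day 7 libraries were the lowest of the whole series. Its log2 difference was -1.50 ± 0.20 (SE; edgeR adjusted p = 4.55e-06), and its day 7 mean was 35.4% of the undamaged mean.

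Hsd11b1, the glucocorticoid-regenerating enzyme, showed the largest fitted loss of the 8. It had 89.3, 162 and 106 CPM in Sca-1 positive cells at day 7, against 482, 433, 378, 335 and 311 CPM in undamaged ones. In Sca-1 negative cells it had 81.0, 277 and 120.4 CPM at day 7, against 885, 949.7, 611 and 751 CPM in undamaged ones. All 6 day 7 libraries lay below the undamaged ones, with negative library 1B nearest to them. The log2 difference was -2.03 ± 0.39 (edgeR adjusted p = 0.000389), which left 24.4% of the undamaged mean. Hsd11b1 lies wholly inside Lamb3 on the opposite strand (GRCm38 chromosome 1, 193221634 to 193264075, minus strand). Lamb3 had 1610 counts over all 26 libraries, and whether the counting used strand is not given in the sources used here.

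Dpep1, the dipeptidase, had lowest 331, median 548 and highest 649.6 CPM in the 6 day 7 libraries, against lowest 1166, median 1608 and highest 2256 CPM in the 9 undamaged libraries. The 2 sets did not overlap, and the log2 difference was -1.61 ± 0.26 (edgeR adjusted p = 5.56e-05). Abca8a, the transporter, had lowest 597, median 831 and highest 1102 CPM at day 7, against lowest 1504, median 1826 and highest 2293 CPM in undamaged hearts, also without overlap. Its log2 difference was -1.12 ± 0.16 (edgeR adjusted p = 1.55e-05). For Dpep1, Abca8a and Hsd11b1 the 2 day 7 libraries without a code were the lowest of their gates.

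Nmb, the neuromedin B gene, had 13.1, 15.5, 10.8, 15.1, 7.92 and 13.002 CPM in the 6 day 7 libraries, against lowest 15.5, median 35.9 and highest 86.0 CPM in the 9 undamaged libraries. In the Sca-1 positive gate 1 day 7 library reached the 2 lowest undamaged ones, and in the negative gate day 7 lay below all undamaged libraries. The log2 difference was -1.78 ± 0.41 (edgeR adjusted p = 0.00232). With title codes as a block in limma-voom it was -1.45 (adjusted p = 0.0611), past the threshold no longer. Nmb shares 188 bases with Sec11a on the same strand. Sec11a, which holds 47955 counts in all, averaged 104 ± 12.96 CPM at day 7 and 102 ± 16.1 CPM in undamaged hearts.

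Smoc2, the SPARC-family protein, had lowest 798, median 1148 and highest 1537 CPM at day 7, against lowest 1392, median 1932 and highest 2728 CPM in undamaged hearts. In the Sca-1 positive gate 1 day 7 library (1537 CPM) passed the lowest undamaged one (1392 CPM), and in the negative gate day 7 lay below all undamaged libraries. The log2 difference was -0.84 ± 0.19 (edgeR adjusted p = 0.00168). Rgcc, the cell cycle regulator, had lowest 2.63, median 7.26 and highest 11.6 CPM at day 7, against lowest 6.27, median 13.9 and highest 25.8 CPM in undamaged hearts. Its difference of -1.06 ± 0.40 missed the threshold (edgeR adjusted p = 0.0559), and passed it with DESeq2 (adjusted p = 0.028), in 6 of 26 edgeR fits without 1 library, and once gate was modelled (-1.05, edgeR adjusted p = 0.0343). Mgp, the calcification inhibitor, had lowest 1414, median 1949 and highest 3599.9 CPM at day 7, against lowest 1830.4, median 3261 and highest 4454 CPM in undamaged hearts, with wide overlap. Its log2 difference was -0.51 ± 0.22 (edgeR adjusted p = 0.0985). Without the Sca-1 negative day 7 library that has no code, at 3599.9 CPM, it became -0.70 (edgeR adjusted p = 0.0258).

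The sequences upstream of 4 genes whose day 7 libraries lay wholly below the undamaged ones are shown, since in these no library of the 2 groups overlapped. They are the 250 bases before the RefSeq start on GRCm38.p6, 5′ to 3′ on the strand of the gene, with motif matches in capitals. The Gsn window (chr2:35282130-35282379, plus strand) is one of 3 start windows listed for the gene. It is the one with the most motif matches, 3. The window nearest the annotated start of Gsn has 0 and the remaining one has 1. The Hsd11b1 window is chr1:193242361-193242610, minus strand. In both printed windows the capitals mark CCAAT or its reverse complement ATTGG. The Abca8a window (chr11:110095938-110096187, minus strand) and the Dpep1 window (chr8:123185985-123186234, plus strand) have GGAATG, the TEAD motif, or its reverse complement CATTCC in capitals.
Gsn: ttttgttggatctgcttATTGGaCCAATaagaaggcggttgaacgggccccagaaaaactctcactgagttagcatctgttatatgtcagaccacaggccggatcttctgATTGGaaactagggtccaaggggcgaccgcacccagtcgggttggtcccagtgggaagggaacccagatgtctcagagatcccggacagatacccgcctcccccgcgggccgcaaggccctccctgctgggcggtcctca
Hsd11b1: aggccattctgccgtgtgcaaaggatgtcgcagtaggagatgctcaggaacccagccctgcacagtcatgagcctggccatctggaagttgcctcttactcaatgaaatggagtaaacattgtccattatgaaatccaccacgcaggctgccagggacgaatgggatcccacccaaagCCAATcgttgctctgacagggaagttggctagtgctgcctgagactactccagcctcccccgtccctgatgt
Abca8a: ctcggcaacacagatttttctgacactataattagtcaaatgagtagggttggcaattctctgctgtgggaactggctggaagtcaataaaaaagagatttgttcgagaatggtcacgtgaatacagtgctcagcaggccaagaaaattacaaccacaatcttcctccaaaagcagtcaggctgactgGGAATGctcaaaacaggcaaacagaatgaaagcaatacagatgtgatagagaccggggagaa
Dpep1: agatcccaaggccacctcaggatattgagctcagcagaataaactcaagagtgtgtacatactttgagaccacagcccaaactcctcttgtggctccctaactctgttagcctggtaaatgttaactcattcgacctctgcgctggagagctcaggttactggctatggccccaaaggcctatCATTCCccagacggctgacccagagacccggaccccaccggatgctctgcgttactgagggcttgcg

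Searched on both strands of 250 bases, CCAAT was in 3 of the 8 windows of the 6 genes with an entry (2 of the Gsn windows and that of Hsd11b1), and in 33.8% of 32851 windows of all genes. GGAATG was in 2 of the 8 windows, those of Abca8a and Dpep1, and in 12.6% of all. AGAACA, an element of glucocorticoid receptor sites, was in the Nmb window and in 16.1% of all, and TGACG, an element of CREB sites, in the Rgcc window and in 17.8% of all. TATAAA (12.4% of all) and the AP-1 motif TGACTCA (4.46% of all) were in none of the 8. A match is a run of letters and no evidence of binding. Smoc2 (chromosome 17, 14279506 to 14404790, plus strand) and Mgp (chromosome 6, 136872435 to 136875823, minus strand) are named only. The other genes lie on GRCm38 at chromosome 2, 35256380 to 35307892, plus strand (Gsn), chromosome 11, 110025634 to 110095978, minus strand (Abca8a), and chromosome 8, 123186242 to 123201812, plus strand (Dpep1). The annotated gene Gm20388, not a row of the count tables, spans Dpep1 on the same strand. Nmb lies at chromosome 7, 80902227 to 80905076, and Rgcc at chromosome 14, 79288756 to 79301645, both on the minus strand.

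**Figure D2:**
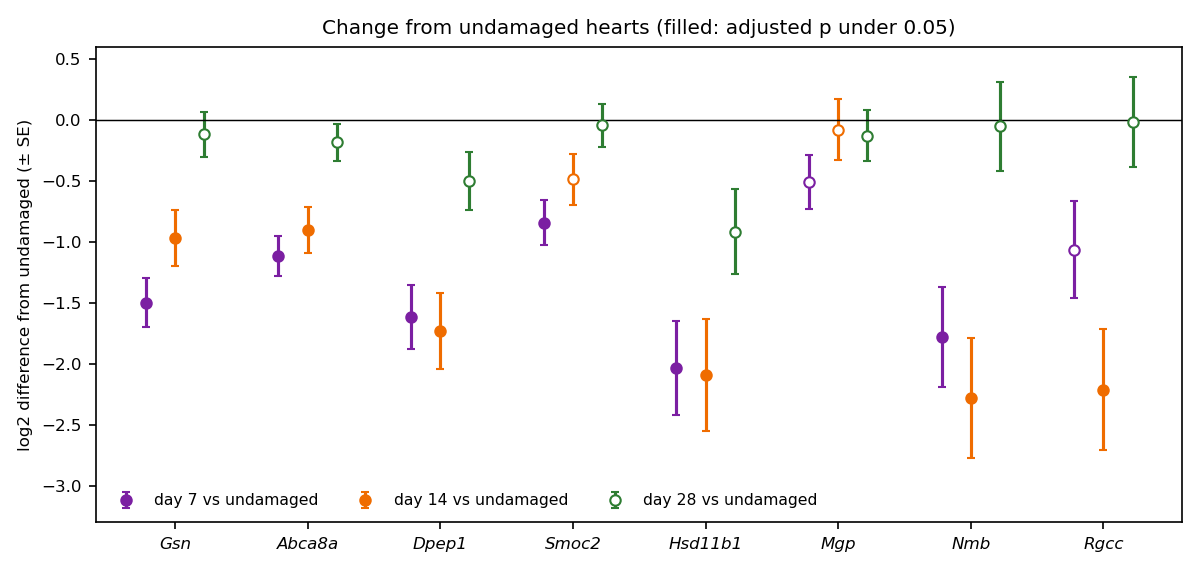
Fitted log2 difference from undamaged hearts (± SE, edgeR, both gates) for the 8 genes at day 7, day 14 and day 28; filled points have an adjusted p under 0.05. Gsn, Abca8a, Dpep1, Hsd11b1 and Nmb are filled at days 7 and 14, and no gene is filled at day 28.

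The loss was not over by day 14, where 6 of the 8 genes were lower than in undamaged hearts, against 3.14% of all genes, and none was higher (5.84%). These 6 were Gsn, Abca8a, Dpep1, Hsd11b1, Nmb and Rgcc, and in each of them no day 14 library reached the undamaged range, as for 1.99% of all genes. Rgcc was at 4.03 and 2.04 CPM in Sca-1 positive and 2.30 and 4.18 CPM in Sca-1 negative libraries of day 14. Its log2 difference from undamaged hearts was -2.21 ± 0.50 (edgeR adjusted p = 0.00388). Nmb stood at 7.91 and 4.67 CPM in positive and 12.4 and 10.6 CPM in negative libraries, with a difference of -2.28 ± 0.49 (edgeR adjusted p = 0.00286). Gelsolin stood at 20595 and 31302 CPM in positive and 18538 and 21415 CPM in negative libraries, with a difference of -0.97 ± 0.23 (edgeR adjusted p = 0.00622). Mgp was at 94.8% of its undamaged mean and Smoc2 at 71.4%, and neither passed the test. Hsd11b1 and Dpep1 were higher in both libraries of code D1 (149 and 247 CPM of Hsd11b1) than in those of code D9 (43.1 and 96.3 CPM).

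By day 28 the levels had returned towards those of undamaged hearts, to different extents. Gelsolin, Abca8a, Dpep1, Smoc2 and Nmb were higher than at day 7, 5 of the 8 genes, against 6.13% of all genes, and none was lower (5.5%). For Gsn, Abca8a and Nmb all 7 day 28 libraries lay above all 6 day 7 libraries, as for 2.47% of all genes. Gelsolin had 29640.5, 40119, 49429 and 39404 CPM in the Sca-1 positive and 30314, 50141 and 50731 CPM in the Sca-1 negative libraries of day 28. Its log2 difference from day 7 was 1.38 ± 0.21 (edgeR adjusted p = 8.54e-05). For Nmb this difference was 1.72 ± 0.42 (edgeR adjusted p = 0.00839), and 1.52 with the code as a block (limma-voom adjusted p = 0.111). Dpep1 differed by 1.11 ± 0.27, Abca8a by 0.94 ± 0.17 and Smoc2 by 0.80 ± 0.19. Hsd11b1, at 1.12 ± 0.39, missed the threshold (edgeR adjusted p = 0.0594), as did Rgcc and Mgp.

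Against undamaged hearts none of the 8 genes was called at day 28 by edgeR, DESeq2 or limma-voom, where edgeR called 1.94% of all genes lower and 3.45% higher. At an unadjusted p under 0.05, 2 of the 8 were lower, Dpep1 and Hsd11b1. Of the 13392 genes tested, 2650 were under that p, in either direction. As shares of the undamaged mean, the day 28 means were 98.6% for Rgcc, 97.1% for Smoc2, 96.1% for Nmb, 92.2% for Gsn, 91.6% for Mgp and 88.3% for Abca8a. Dpep1 stood at 70.6% and Hsd11b1 at 53.1%, the lowest of the 8. Hsd11b1 differed by -0.91 ± 0.35 (edgeR adjusted p = 0.132). Once gate was modelled its difference was -0.92 (edgeR adjusted p = 0.0484), past the threshold.

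These day 28 means join libraries that stand apart by the style of their code. Hsd11b1 had 186, 122 and 274 CPM in the letter-coded day 28 libraries, against 482, 433, 378, 885 and 949.7 CPM in the letter-coded undamaged ones. It had 279.8, 188, 595 and 475 CPM in the prefixed day 28 libraries, against 335, 311, 611 and 751 CPM in the prefixed undamaged ones. Within each style and gate every day 28 library lay below every undamaged one, by a wider margin among letter-coded libraries. Each style and gate holds few libraries, and the share of all genes with this order is not given here. Within one edgeR fit of the 16 day 28 and undamaged libraries with gate modelled (13108 genes), chosen after the data were seen, Hsd11b1 had a log2 difference of -1.57 ± 0.18 in letter-coded libraries (edgeR adjusted p = 1.39e-05). In prefixed libraries its difference was -0.41 ± 0.16 (edgeR adjusted p = 0.0986). The difference between these 2 changes was -1.16 ± 0.23 (edgeR adjusted p = 0.00245).

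Dpep1 and Rgcc showed the same split, as did Gsn by a small margin. Dpep1 had 619, 515 and 928 CPM in letter-coded day 28 libraries, against 1566, 1786, 1200.1, 2256 and 2054 CPM in the undamaged ones. Its change was -1.34 ± 0.17 (edgeR adjusted p = 3.88e-05) there, and 0.01 ± 0.16 among prefixed libraries. The difference of -1.36 ± 0.23 passed the threshold (edgeR adjusted p = 0.000484). Rgcc changed by -1.26 ± 0.32 in letter-coded libraries (edgeR adjusted p = 0.016), its prefixed difference was 0.48 ± 0.29, and the 2 differed by -1.74 ± 0.43 (edgeR adjusted p = 0.010). Gelsolin had differences of -0.50 ± 0.16 and 0.18 ± 0.16 in the letter-coded and prefixed sets, neither past the threshold in edgeR. The difference between them was -0.68 ± 0.23 (edgeR adjusted p = 0.0482), a call lost without any one of 12 of the 16 libraries, at an adjusted p of up to 0.12 without day 28 library E2.

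With limma-voom and the title code as a block, fitted after the data were seen, the difference between styles was called for Dpep1 (adjusted p = 0.000605), Hsd11b1 (0.00276) and Rgcc (0.0232), and missed for Gsn (-0.67, adjusted p = 0.0713; 0.0442 without the block). In letter-coded libraries Rgcc then missed the threshold (-1.23, limma-voom adjusted p = 0.0607 with the block and 0.0516 without it). Gsn passed it in these libraries without the block (-0.51, limma-voom adjusted p = 0.0469) and missed it with the block (-0.50, adjusted p = 0.0584).

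In edgeR 4 of the 8 genes had a lower change in letter-coded than in prefixed libraries and none a higher one, against 9.21% and 6.49% of all genes. In the letter-coded set 3 of the 8 fell and none rose (6.18% and 4.58% of all genes), and in the prefixed set none was called (5.87% lower, 8.84% higher). The difference between styles was called for Dpep1, Hsd11b1 and Rgcc without each of the 16 libraries in turn, E2 with its reads outside genes included. Rgcc was less stable within each style. Its letter-coded change was -1.02 without day 28 library F2 (edgeR adjusted p = 0.0958), and its prefixed change was 0.85 without undamaged positive library B7 (edgeR adjusted p = 0.0377). Abca8a, Smoc2, Mgp and Nmb did not differ between the styles past the threshold. What the code styles stand for is not given in the labels. Letter-coded libraries exist only in undamaged and day 28 hearts, so the losses at days 7 and 14 cannot be set against them. Among prefixed libraries alone the same 6 genes were lower at day 7, with Gsn at -1.40 (edgeR adjusted p = 0.000686) and Hsd11b1 at -1.60 (edgeR adjusted p = 0.0257). In that fit Rgcc also rose between day 7 and day 28 (1.59, edgeR adjusted p = 0.0197). The share of all genes called in the fit of prefixed libraries alone is not given here, so its count of 6 only describes these genes.

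**Figure D3:**
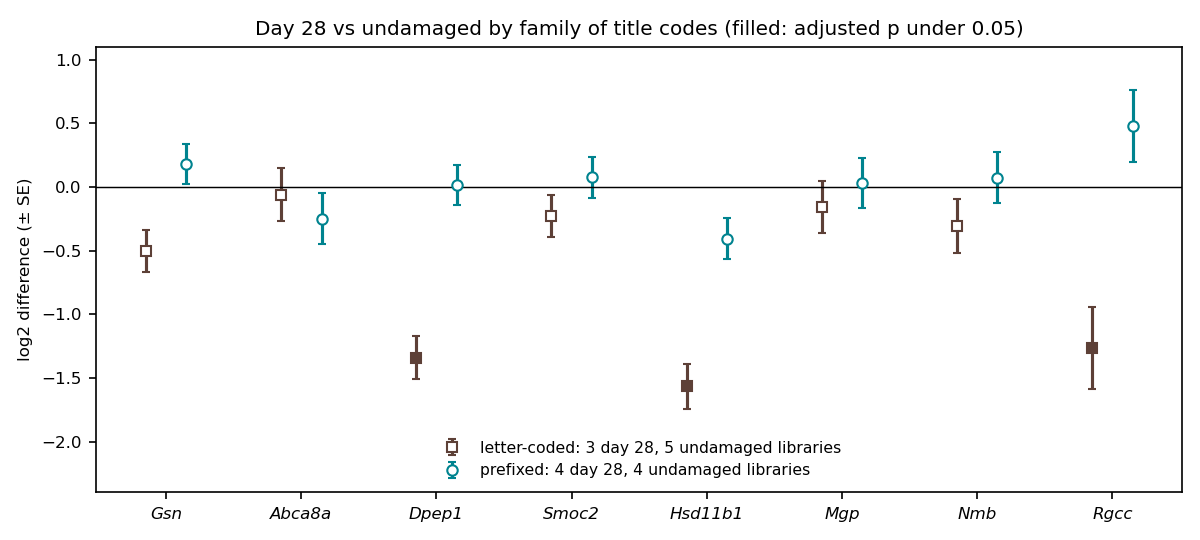
Fitted log2 difference of day 28 from undamaged hearts (± SE, edgeR with gate modelled) for each gene among letter-coded libraries (squares) and prefixed libraries (circles); filled points have an adjusted p under 0.05. Dpep1, Hsd11b1 and Rgcc are filled in the letter-coded set, and no gene is filled in the prefixed set.

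The loss was seen in both Sca-1 gates, with more calls in the negative one. Among Sca-1 negative cells 6 of the 8 genes were lower at day 7 than in undamaged hearts (6.91% of all genes were lower, 8.82% higher; edgeR fit of 8 groups of time and gate, 14052 genes). They were Gsn, Abca8a, Dpep1, Smoc2, Hsd11b1 and Nmb. Among Sca-1 positive cells 4 were lower, Gsn, Abca8a, Dpep1 and Hsd11b1, against 1.84% of all genes lower and 3.5% higher. The count in positive cells was 2 without the day 7 library that has no code or without 4A, and 0 without the 4 libraries whose title gives no gate, which leaves 1 day 7 library a gate. Libraries did not overlap between day 7 and undamaged for 4 genes in the positive gate and for 7 in the negative gate, all but Mgp (7.19% and 9.62% of all genes).

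DESeq2 called 5 genes lower in positive cells, Nmb being the one added, and 7 in negative cells, where Rgcc was added. Over all genes DESeq2 also called more than edgeR did in positive cells, and its share in negative cells is not given here. Nmb differed by -0.96 ± 0.29 in positive cells (edgeR adjusted p = 0.0516, DESeq2 adjusted p = 0.025) and by -2.34 ± 0.31 in negative cells (edgeR adjusted p = 1.7e-05). Smoc2 differed by -0.41 ± 0.22 in positive cells (edgeR adjusted p = 0.324) and by -1.33 ± 0.23 in negative cells (edgeR adjusted p = 0.000351). The gates were not shown to differ in their day 7 change for any of the 8 genes (edgeR test of the interaction). Nmb came nearest, at 1.37 ± 0.41 (edgeR adjusted p = 0.513), and 2 of the 8, Nmb and Smoc2, had an unadjusted p under 0.05. Of all 14052 genes, 840 were under that p, in either direction. DESeq2 and limma-voom called none of the 8 either, and edgeR called 0.00712% of all genes lower in this test and 0% higher.

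The gap between gates showed in Nmb before and long after the injury. In undamaged hearts Nmb had 15.5, 15.5, 21.4, 22.6 and 35.9 CPM in Sca-1 positive libraries, against 57.1, 86.0, 74.6 and 59.3 CPM in Sca-1 negative ones. The log2 difference of positive from negative was -1.64 ± 0.25 (edgeR adjusted p = 0.000246; 1.89% of all genes were lower, 2.21% higher). At day 7 the gates overlapped, with 15.5, 10.8 and 7.92 CPM in positive and 13.1, 15.1 and 13.002 CPM in negative libraries. At day 28 Nmb had 16.5, 16.7, 29.0 and 28.7 CPM in positive libraries, against 46.6, 76.3 and 75.9 CPM in negative ones, apart again. That difference was -1.54 ± 0.29 (edgeR adjusted p = 0.00721; 0.235% of all genes were lower, 0.733% higher), and without negative library B4 or B6 it missed the threshold (edgeR adjusted p = 0.0629 and 0.057).

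With the title code as a block in edgeR, further genes were lower in Sca-1 positive cells. That fit kept only libraries whose code has both gates. These were F3, A6 and B7 in undamaged hearts, D1 and D9 at day 14, and B4 and B6, both prefixed, at day 28. At day 7 the libraries whose gate comes from the file name were kept as pairs too. The libraries thus changed along with the model. Hsd11b1 then differed by -1.15 in undamaged hearts (edgeR adjusted p = 0.000468), -0.94 at day 14 (adjusted p = 0.0381) and -1.21 at day 28 (adjusted p = 0.00504). Without the block, and with every library kept, the first of these was -1.04 ± 0.36 (edgeR adjusted p = 0.106). Dpep1 differed by -0.53 in undamaged hearts (edgeR adjusted p = 0.0407) and -0.86 at day 28 (adjusted p = 0.0247) in the blocked fit. With the block in limma-voom, Hsd11b1 and Rgcc were lower in undamaged hearts (adjusted p = 0.0175 and 0.0434) and Dpep1 at day 28 (adjusted p = 0.0471). Gelsolin ran the other way before day 28. In undamaged hearts all 5 positive libraries (44791 to 55169.6 CPM) lay above all 4 negative ones (37415 to 41759 CPM), with a difference of 0.36 ± 0.20 (edgeR adjusted p = 0.372), and at day 14 it was 0.38 ± 0.30. At day 7 it was 0.80 ± 0.24 (edgeR adjusted p = 0.462), a call only with DESeq2 (adjusted p = 0.0207) and with the block in limma-voom (adjusted p = 0.035). Without a block, no gene of the 8 was lower in positive cells at day 7 or day 14, by edgeR, DESeq2 or limma-voom. At these times edgeR called 0.0213% and 0% of all genes lower and 0.185% and 0.0285% higher. Among those lower, Nmb alone of the 8 had an unadjusted p under 0.05, at day 14. There 305 of all 14052 genes were under that p, in either direction.

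Between day 7 and day 28, 6 of the 8 genes rose in Sca-1 negative cells (3.27% of all genes rose, 3.43% fell) and Gsn alone rose in positive cells (0.541% rose, 0.612% fell). Gelsolin rose by 1.91 ± 0.25 in negative cells (edgeR adjusted p = 0.00011) and by 0.98 ± 0.23 in positive cells (edgeR adjusted p = 0.0393). The positive call was lost without any one of 11 libraries, of which 5 belong to neither of the 2 groups compared. In negative cells the count was 4 to 6 without 1 library, Hsd11b1 being lost in 8 of 26 such fits (adjusted p up to 0.187) and Abca8a in 4 (up to 0.0927), and it was 2 without the 4 libraries whose title gives no gate. The difference in recovery between gates was not tested. Against undamaged hearts no gene of the 8 was called at day 28 in either gate by edgeR, DESeq2 or limma-voom (by edgeR 0.427% of all genes were lower and 1.72% higher in positive cells, 0.384% lower and 1.13% higher in negative cells). In positive cells Dpep1 (-0.79 ± 0.27) and Hsd11b1 had an unadjusted p under 0.05, and in negative cells none did. Of all 14052 genes, 2100 in positive and 2070 in negative cells were under that p, in either direction.

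**Figure D4:**
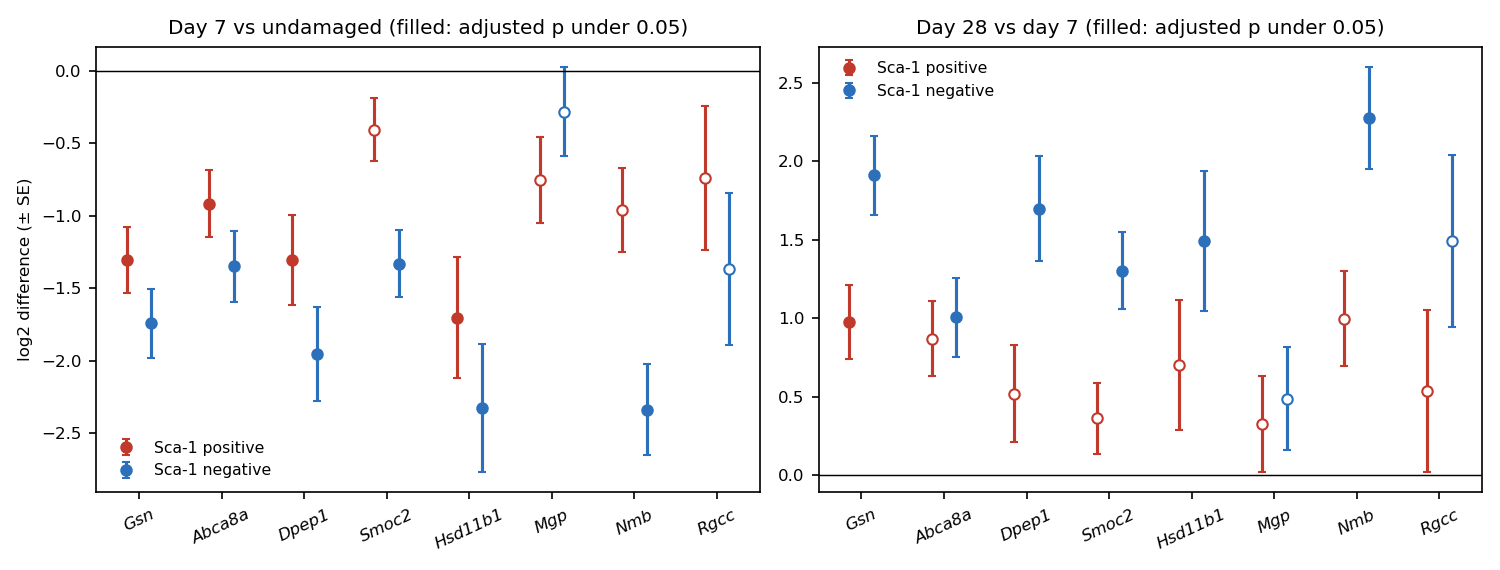
Fitted log2 differences (± SE, edgeR) of day 7 from undamaged hearts (left) and of day 28 from day 7 (right) within the Sca-1 positive gate (red) and the negative gate (blue); filled points have an adjusted p under 0.05. At day 7 Smoc2 and Nmb are filled in the negative gate alone, and in the right panel Gsn alone is filled in the positive gate.

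The relatives and pathway partners of the 8 genes did not move as one block, and their counts at day 7 are to be read against 11.2% of all genes lower and 11.5% higher. Of 6 other gelsolin-superfamily genes tested at day 7 (7 listed), Scin, a calcium-dependent severing protein, fell by 2.05 on the log2 scale. Its means were 4.59 CPM at day 7 and 19.0 CPM in undamaged hearts. Undamaged libraries had 16.9 to 37.1 CPM of Scin where letter-coded and 1.31 to 11.02 CPM where prefixed. Day 7 has no letter-coded library, and its prefixed libraries had 2.05 to 6.11 CPM, inside the prefixed undamaged range. The part of code style in the fall of Scin was not tested. Vill was higher by 2.60 ± 0.63 at a level of 2.42 CPM, and Capg, Svil, Flii and Avil did not pass. Among 21 regulators of actin dynamics 2 were lower, Cfl2 (-0.42 ± 0.14) and Arpc3 (-0.33 ± 0.12), and none was higher, a share near or below that of all genes. Their median was -0.14, beside -0.04 over all genes.

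Of 8 other A-subclass ABC transporters 5 fell at day 7 and none rose, with a median of -0.48. Abca8b, the neighbour paralog of Abca8a, averaged 173 CPM at day 7 and 387 CPM in undamaged hearts, a difference of -1.16 ± 0.24 (edgeR adjusted p = 0.000781). Abca6 differed by -1.17 ± 0.30 and Abca7 by -0.74 ± 0.21, while Abca1, the cholesterol exporter, was at -0.06 ± 0.19. Reads of Abca8a and Abca8b may be split between these similar genes by the counting. In the list of dipeptidase and glutathione-conjugate enzymes 4 of 6 tested genes fell and none rose. They were Ggt5 (-1.04 ± 0.34) and Ggt7, of the gamma-glutamyltransferase family, and Mgst1 (-0.93 ± 0.19) and Mgst3 (-0.88 ± 0.30), membrane glutathione transferases. Dpep2, the related dipeptidase, stayed at or below 0.604 CPM in day 7 libraries and 0.568 CPM in undamaged ones.

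The SPARC family split. Smoc1, the nearest relative of Smoc2, averaged 10.2 CPM at day 7 and 27.6 CPM in undamaged hearts (-1.43 ± 0.33, edgeR adjusted p = 0.00264), and Spock2 and Sparcl1 fell as well. Sparc itself rose, at 13098 CPM at day 7 and 3174 CPM in undamaged hearts (2.04 ± 0.15, edgeR adjusted p = 7.78e-11), as did Fstl1 (1.12 ± 0.23).

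Around Hsd11b1, 17 other genes of glucocorticoid activation and response were tested, of which 3 fell and 2 rose at day 7, close to the shares of all genes (11.2% lower, 11.5% higher). Nr3c2, the mineralocorticoid receptor, differed by -1.36 ± 0.17 (edgeR adjusted p = 1.98e-06), the glucocorticoid-responsive Glul by -1.16 ± 0.27 and Cebpd by -0.98 ± 0.31. Hsd11b2, which inactivates glucocorticoid, rose by 3.76 ± 0.73 (edgeR adjusted p = 0.000432), yet only to a mean of 1.68 CPM, against 0.12 CPM in undamaged hearts. Nr3c1, the glucocorticoid receptor, differed by -0.11 ± 0.15 and H6pd, which supplies the cofactor of Hsd11b1, by -0.23 ± 0.19, both short of the threshold. In the comparison of code styles at day 28, 6 of 16 tested genes of this list had a lower change in letter-coded libraries, none a higher one (9.21% and 6.49% of all genes), and their median was -0.86 beside 0.02 over all genes.

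Of 15 genes of Gla protein carboxylation and mineral balance, listed around Mgp, 6 rose and 5 fell at day 7. Among the risers were Spp1, osteopontin (4.14 ± 0.71), Enpp1, which makes the calcification inhibitor pyrophosphate (2.11 ± 0.23), and the phosphate carrier Slc20a1 (1.16 ± 0.20). Entpd1 (-1.71 ± 0.28), Alpl, tissue-nonspecific alkaline phosphatase (-1.41 ± 0.31), and Nt5e (-1.23 ± 0.36) fell. Ggcx, the gamma-glutamyl carboxylase, was at 0.07 ± 0.11. None of the 4 other bombesin-like peptides and receptors passed the low-count filter, and Nmbr, the receptor of neuromedin B, was at or below 0.0560 CPM at day 7 and 0.108 CPM in undamaged libraries.

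Set beside Rgcc, 10 of 16 cell cycle genes rose at day 7 and 1, Ccnd1, fell (-1.20 ± 0.27). Bub1 (3.56 ± 0.92), Mki67 (3.39 ± 0.70) and Aurkb (3.07 ± 0.83), all of mitosis, had the largest increases. Of 30 other resting fibroblast genes 18 fell and 1 rose at day 7, with a median of -0.70. They were led by Inmt (-2.95 ± 0.43), G0s2 (-1.93 ± 0.31) and Adh1 (-1.75 ± 0.42), and Mfap4 was the riser (1.93 ± 0.24). Between day 7 and day 28, 16 of these 30 rose and 1 fell (6.13% and 5.5% of all genes). At day 28 against undamaged hearts 4 were higher and 1, Adh1, was lower (3.45% and 1.94% of all genes). Of 26 activated fibroblast genes 23 rose at day 7 and none fell, with a median of 2.61, and 16 were still higher at day 28 while 1, Fstl3, was lower. Cthrc1 (8.47 ± 0.41), Ddah1 (6.42 ± 0.41) and Tnc (4.46 ± 0.40) showed the largest increases at day 7.

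**Figure D5:**
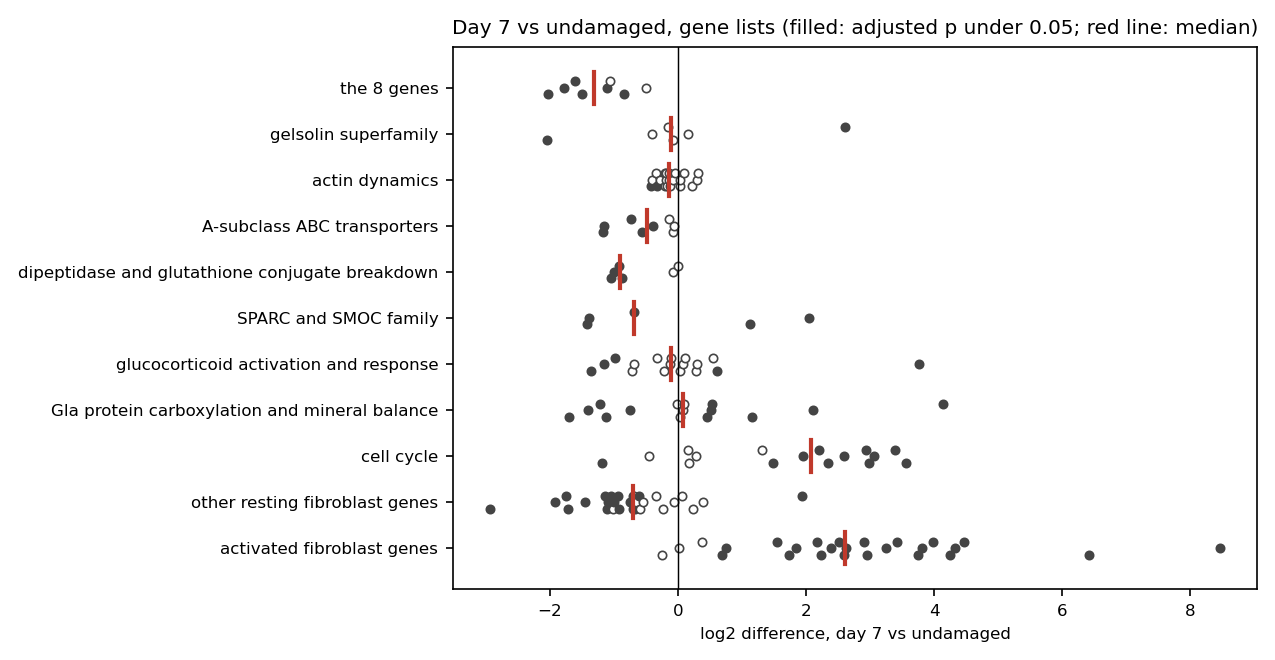
Fitted log2 difference of day 7 from undamaged hearts for the 8 genes and for the tested members of each related list (points, filled where the edgeR adjusted p is under 0.05), with the list median as a red line. The 8 genes have a median of -1.31, the other resting fibroblast genes -0.70 and the activated fibroblast genes 2.61.

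Markers of other cell types moved over the same times, and their part in the results was not tested. The summed level of 8 endothelial markers was 43.6 to 54.1 CPM at day 7 and 89.2 to 339 CPM in undamaged hearts, and 8 of 8 were lower. At day 28 it was 22.9 to 138 CPM, with 6 of 8 lower than in undamaged hearts. Leukocyte markers summed to 25.2 to 56.8 CPM at day 7 and 6.43 to 34.4 CPM in undamaged hearts (4 of 7 tested were higher; Cd3e was at 0 in both). Epicardial markers summed to 7.06 to 75.8 CPM at day 7 and 0 to 8.91 CPM in undamaged hearts (5 of 5 higher). Mural markers summed to 126 to 267 CPM at day 7 and 104 to 538 CPM in undamaged hearts (1 of 8 higher, 1 lower), and cardiomyocyte markers to 11.9 to 39.2 CPM at day 7 and 11.7 to 76.9 CPM in undamaged hearts (0 of 7 called). Schwann markers summed to 19.97 to 34.8 CPM at day 7 and 31.4 to 64.8 CPM in undamaged hearts (1 of 3 lower), adipocyte markers to 0.283 to 5.10 CPM at day 7 and 1.08 to 3.53 CPM in undamaged hearts (1 of 1 lower). Erythroid markers summed to 0.346 to 6.56 CPM at day 7 and 0 to 35.1 CPM in undamaged hearts (0 of 1 called), with Hba-a1, Hbb-bs and Hbb-bt at 0 in both. The 7 general fibroblast markers summed to 53723 to 82803 CPM at day 7 and 28525 to 35126 CPM in undamaged hearts, with 2 higher and 4 lower. Col1a1 was the highest of them at day 7, at a mean of 30955 CPM. Of these markers, Col1a1 and Col1a2 are also among the activated fibroblast genes, and Tcf21, Dcn, Dpt and Lum among the other resting ones.

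Across the 26 libraries the 8 genes did not all vary together. Dpep1 and Hsd11b1 were the closest pair (Pearson r = 0.955 of log2 CPM over 26 libraries, which share the times, gates and code styles), followed by Nmb with Rgcc (0.832) and Hsd11b1 with Nmb (0.825). Gsn, Smoc2 and Abca8a formed another close trio, at 0.776 to 0.792. Mgp went with none of them, at 0.0995 with Abca8a and 0.129 with Smoc2. The genes whose pattern was most like that of Gsn among 8834 candidates were Gstm1 (r = 0.956), Colgalt2 (0.922), Selenbp1 (0.905), Pttg1ip (0.904) and Camk2n1 (0.904). Gstm1 differed at day 7 by -1.93 ± 0.20 (edgeR adjusted p = 6.52e-08). For the others the closest were Fam49a (0.910) and Prex2 (0.903) for Abca8a, Maob (0.912) and Vwa1 (0.894) for Dpep1, and Gstt1 (0.906) and Il17d (0.885) for Smoc2. Blnk (0.911) was closest to Hsd11b1, Tmem204 (0.940) to Nmb, and Cebpd (0.897) and Mafk (0.874) to Rgcc. Mgp had the weakest best matches, Dnase2a (0.784) and Atp5l (0.726). These correlations describe the libraries and carry no test.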

How the data were processed

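Bulk RNA sequencing counts of 26 libraries were used. The deposited values are raw counts, whole numbers of reads per gene symbol (24421 genes, plus entries for reads outside genes and reads shared by several genes, which were left out of totals and tests; the shared reads were 0.128% to 0.646%). Paired-end sequencing of stranded mRNA libraries is given per the labels' protocols. The submitters' processing notes name TopHat, STAR, Bowtie2, Cufflinks and bcl2fastq, and mm10 as the build. The counting program, its strand setting, its annotation and all versions are not given in the sources used here. Symbols were matched to GENCODE M21 (23376 symbols, 95.7%).

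In R 4.3.3, edgeR 4.0.16 fitted 26 libraries by time (13392 genes) and by 8 groups of time and gate (14052 genes), after its filter on low counts and TMM scaling, with two-sided quasi-likelihood tests and Benjamini-Hochberg adjustment over all genes. A call is an adjusted p under 0.05. Levels are TMM-scaled CPM, with SD; log2 differences carry SE. Alternatives were DESeq2 1.42.0, its size factors in edgeR, limma-voom (limma 3.58.1), no filter, leaving out each library, and each code style alone; the comparison of code styles (16 libraries) and its block were added after the data were seen. The scripts were tested on simulated counts. The title codes shared by both gates of a time gave 9 pairs. Within each pair the departures from the group mean were correlated over genes (r = 0.190 to 0.415, each above 0.1), and the code was therefore also fitted as a replicate block. In edgeR this fit kept only the libraries of the 9 pairs, while limma-voom kept every library. Code style was not removed before the correlation, so a shared code and a shared style cannot be told apart by it. Day 14 has 2 codes, so its pairs give one value, 0.415, by construction. Labels do not give separate animals, so p-values measure the spread between these libraries. No molecular identifiers are named, so depth limits cover counting error only.

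The 8 genes, the related lists and the tests were chosen with earlier results of these data known. Named genes were the 8, their closest patterns (5 for Gsn, 2 for each other gene, mean log2 CPM of at least 3), fixed relatives, and up to 3 called genes per direction of each list with the largest day 7 change; Flii, Avil, Abca1, Ggcx, Mgst3, Fstl3, Lamb3 and Sec11a were added after their values were seen. For Hsd11b1 and Nmb 1 closest pattern each is given, and the other is not reported here. The gate of 4 day 7 libraries was read from the file name.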

Additional observations from a re-analysis of the deposited data

Results flagged for a closer look

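The change of 4 genes between undamaged and day 28 hearts differed between libraries with the 2 styles of title code, letter-coded minus prefixed, by the edgeR test of the difference itself. It was -1.74 ± 0.43 on the log2 scale for Rgcc (edgeR adjusted p = 0.010), -1.36 ± 0.23 for Dpep1 (adjusted p = 0.000484), -1.16 ± 0.23 for Hsd11b1 (adjusted p = 0.00245) and -0.68 ± 0.23 for Gsn (adjusted p = 0.0482). With the title code as a block in limma-voom the adjusted p for Gsn was 0.0713. What the styles stand for was not tested.

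Each gene was checked in each group of 4 or 5 libraries. In 2 of these 24 checks 1 library stood apart, where chance gives about 1 in 20 for a single check. The genes share the same libraries, so the checks are not independent. Abca8a was at 2445 CPM in the Sca-1 positive day 28 library E2, the library with 55.8% of reads outside genes, against 1204 to 1405 CPM in the other 3. Smoc2 was at 1929 CPM in the Sca-1 negative undamaged library B7, against 2596 to 2728 CPM in the other 3.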

How the results depend on the processing

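Counts are of the 8 genes, and the cause of a difference was not tested. At days 7 and 14 over both gates, the 6 calls each kept their direction in every alternative run, DESeq2 called a 7th gene at day 7, Rgcc, and the single call lost was Nmb at day 7 with the replicate block, which also ended its call between day 7 and day 28. The count lower at day 28 than in undamaged hearts was 0, but 1 with gate modelled and 2 in letter-coded libraries alone. Without the 4 day 7 libraries whose title gives no gate, 0 were lower at day 7 in positive cells (4 with them, 5 with DESeq2), 0 were higher at day 28 than at day 7 in positive cells (1 with them) and 2 in negative cells (6 with them). That count in positive cells was 2 with DESeq2 and 0 without the low-count filter. Lower in positive than negative cells were, in undamaged hearts, 2 with DESeq2 and 3 with either replicate block (1 without a block in edgeR); at day 14, 1 with the block in edgeR (0); at day 28, 2 with DESeq2, 2 with the block in limma-voom and 3 with it in edgeR (1). The block in edgeR used only libraries whose code has both gates. Higher in positive cells at day 7 was 1 with DESeq2 and 1 with the block in limma-voom (0). Between code styles the block ended the call for Gsn, and in letter-coded libraries limma-voom ended that for Rgcc with and without the block. For Gsn in letter-coded libraries limma-voom gave a call without the block (adjusted p = 0.0469) and none with it (0.0584). In the contrasts fitted with a block, the block changed no other call of the 8 genes. Leaving out each library in turn gave 6 to 7 genes lower at day 7 over both gates, 2 to 5 in positive cells, 4 to 6 higher at day 28 than day 7 in negative cells, 0 to 1 lower at day 28 in positive cells, 0 to 1 higher at day 28 than day 7 in positive cells and 0 to 2 lower in positive than negative cells at day 28. Differences near 0 changed sign. At day 28 against undamaged hearts, prefixed libraries alone gave 0.52 for Rgcc, 0.078 for Smoc2, 0.15 for Gsn, 0.018 for Mgp, 0.11 for Nmb and 0.041 for Dpep1, and within the fit of both styles 0.48, 0.075, 0.18, 0.031, 0.073 and 0.014 in that order. Rgcc was at 0.0050 without the filter, and Nmb at 0.061 with limma-voom and 0.068 with its block. Mgp at day 14 was 0.29 in prefixed libraries. Without the 4 libraries, Mgp was -0.12 (day 28 against day 7, positive), 0.24 (day 7, negative) and -0.038 (day 28 against day 7, negative), and at day 7 positive against negative was 0.15 for Hsd11b1 and 0.25 for Nmb. Leaving out 1 library moved the day 28 difference between -0.28 and 0.14 for Nmb, -0.25 and 0.17 for Rgcc, and -0.15 and 0.022 for Smoc2, and Mgp at day 14 between -0.17 and 0.019. The gate difference moved between -0.74 and 0.17 for Dpep1 at day 14, -1.98 and 0.020 for Hsd11b1 at day 14, and -0.73 and 0.25 for Hsd11b1 at day 7. The difference between code styles moved between -0.21 and 0.45 for Abca8a and -0.46 and 0.018 for Mgp. Over all genes, edgeR called 462 higher and 260 lower at day 28 against undamaged hearts. These counts were 622 and 478 with DESeq2 and 190 and 74 with the block in limma-voom. The next counts are from limma-voom with the block, and those in brackets from edgeR without it. Model and block thus change together, and the part of the block alone is not shown. Counts were 1449 and 920 at day 7 (1545 and 1503) and 421 and 500 between day 7 and day 28 (821 and 736). Between gates they were 1018 and 745 in undamaged hearts (311 and 265) and 59 and 45 at day 7 (26 and 3). At day 14 they were 77 and 62 (4 and 0), and at day 28 they were 214 and 98 (103 and 33). DESeq2 called 692 and 439 at day 7 in positive cells (492 and 259 by edgeR), and without the 4 libraries edgeR called 155 and 25 there and 435 and 208 in negative cells (1239 and 971 with them). Limma-voom called 1233 and 528 at day 14 (782 and 421 by edgeR). Rgcc stood on as few as 36 counts in a library.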
